A study of Mus musculus with 6 samples.

Results

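Lysosomal genes were followed in primary brain microvascular endothelial cells of wild-type C57BL/6 mice, which form the inner lining of brain capillaries, after exposure to dolutegravir (DTG), an inhibitor of HIV integrase. The 41 genes were chosen by name for their place in the lysosome, with earlier results of these data known. The count table holds 43271 gene identifiers, and all 41 genes were found there. The 41 fall into 5 membrane proteins, 3 transcription factors of the MiT/TFE family, 7 cathepsins, 10 glycosidases, 8 other hydrolases and their activator proteins, and 8 subunits of the proton pump. Confluent cultures received DTG at 5000 ng/ml for 24 h (3 libraries) or the vehicle dimethyl sulfoxide (DMSO) for the same time (3 libraries). The cells were passaged in serum-containing endothelial medium before treatment. Nothing in the labels ties each library to a culture of its own, and p-values therefore cover the spread among these libraries alone, which may be technical.

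Lysosomes are acidic compartments in which hydrolases break down proteins, glycans, lipids and nucleic acids delivered by endocytosis and autophagy. Most of the soluble hydrolases fold and are glycosylated in the endoplasmic reticulum, receive a mannose 6-phosphate tag in the Golgi and are carried onward by receptors that bind this tag. The vacuolar proton pump (V-ATPase), built from a membrane sector V0 and a cytosolic sector V1, acidifies the lumen. TFEB, TFE3 and MITF are related factors that enter the nucleus on lysosomal or nutrient stress and bind the motif CACGTG, the core of the so-called CLEAR element, in promoters of many lysosomal genes. In brain endothelium, lysosomes receive much of the cargo taken up from the blood that is not carried across the barrier.

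The libraries held between 41162353 and 56316335 counts, of which the 41 genes took 1.04%, 0.874% and 0.897% in DTG libraries 1, 2 and 3, against 1.28%, 1.37% and 1.22% in DMSO libraries 1, 2 and 3. At this depth a single count was worth 0.0169 to 0.0230 CPM (counts scaled to the size of each library), so counting error was small for all but the rarest of these genes. Library names also carry an undefined tag, P4 (DTG libraries 2 and 3, DMSO library 1) or P5 (DTG library 1, DMSO libraries 2 and 3), and differences are also given within each tag. Hspa5, the endoplasmic reticulum chaperone BiP and a check of the drug response, was 18.6-fold higher in DTG (adjusted p = 2.92e-08). Of 10 pan-endothelial markers all 10 were expressed and 7 were lower in DTG, against 29.3% of all genes tested. Their summed level was 6425 to 6636 CPM in DTG and 8708 to 9132 CPM in DMSO. Of 8 markers of brain endothelium 5 passed the filter, with 2 higher and 2 lower in DTG, against 27.4% and 29.3% of all genes tested. The 8 had a summed level of 1073 to 1224 CPM in DTG and 958 to 1188 CPM in DMSO. Cldn5, a tight junction protein, averaged 548 CPM in DTG and 875 CPM in DMSO, and Slc2a1, the glucose transporter, 365 CPM in DTG and 135 CPM in DMSO. Abcg2 was lower and Slc7a5 higher in DTG, and the transporters Slco1a4 and Slco1c1 had no count in any library. The remaining brain endothelial markers were near the floor. Abcb1a averaged 0.88 CPM in DTG and 0.83 CPM in DMSO, and Mfsd2a 0.12 CPM in DTG and 0.026 CPM in DMSO. The summed level therefore came almost wholly from Cldn5, Slc2a1, Abcg2 and Slc7a5. Of 12 microglia and macrophage markers only Cd68, itself a lysosomal membrane protein, passed the filter on low counts, and Tyrobp, P2ry12, C1qa and C1qb were at 0 in every library. The summed level of these 12 was 120.3 to 180 CPM in DTG and 83.4 to 97.7 CPM in DMSO, nearly all of it Cd68, which rose 1.54-fold (119.9 to 179 CPM in DTG, 83.2 to 97.4 CPM in DMSO, adjusted p = 0.00559). Mural, fibroblast, astrocyte and epithelial markers summed to at most 8.68 CPM in DTG and 7.50 CPM in DMSO per list. In RNA from whole cultures, fewer cells of a type and less RNA per cell cannot be told apart.

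Most lysosomal hydrolases were lower in DTG, whereas most of the 8 pump subunits among the 41 did not pass the test. Of the 41 genes, chosen with earlier results of these data known, 40 passed the filter on low counts, the exception being Ctsf. Among these 40, 23 were lower in DTG (57.5%, against 29.3% of the 14101 genes tested) and 6 were higher (15%, against 27.4%) at an adjusted p under 0.05 by edgeR's quasi-likelihood test over all genes. The median log2 change of the 40 genes was -0.34, beside -0.01 over all genes tested, with -0.42 among P4 libraries and -0.20 among P5 libraries. Groups did not overlap in 26 of the 40 genes (65%), close to the 64.2% of all genes tested, and 5 of the 40 were called with a log2 change of at least 1 in size, against 14.6% of all genes. All 29 genes called had the same sign within P4 and within P5, which has to hold for the 25 of them whose groups did not overlap. Of the 23 that fell, 22 did so less within P5. The single P5 library of DTG, library 1, was the DTG library nearest to DMSO in 20 of these 23. These counts were not made over all genes. Hspa5 was likewise nearest to DMSO in DTG library 1, at 10660 CPM, against 14759 and 14712 CPM in DTG libraries 2 and 3.

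**Figure D1:**
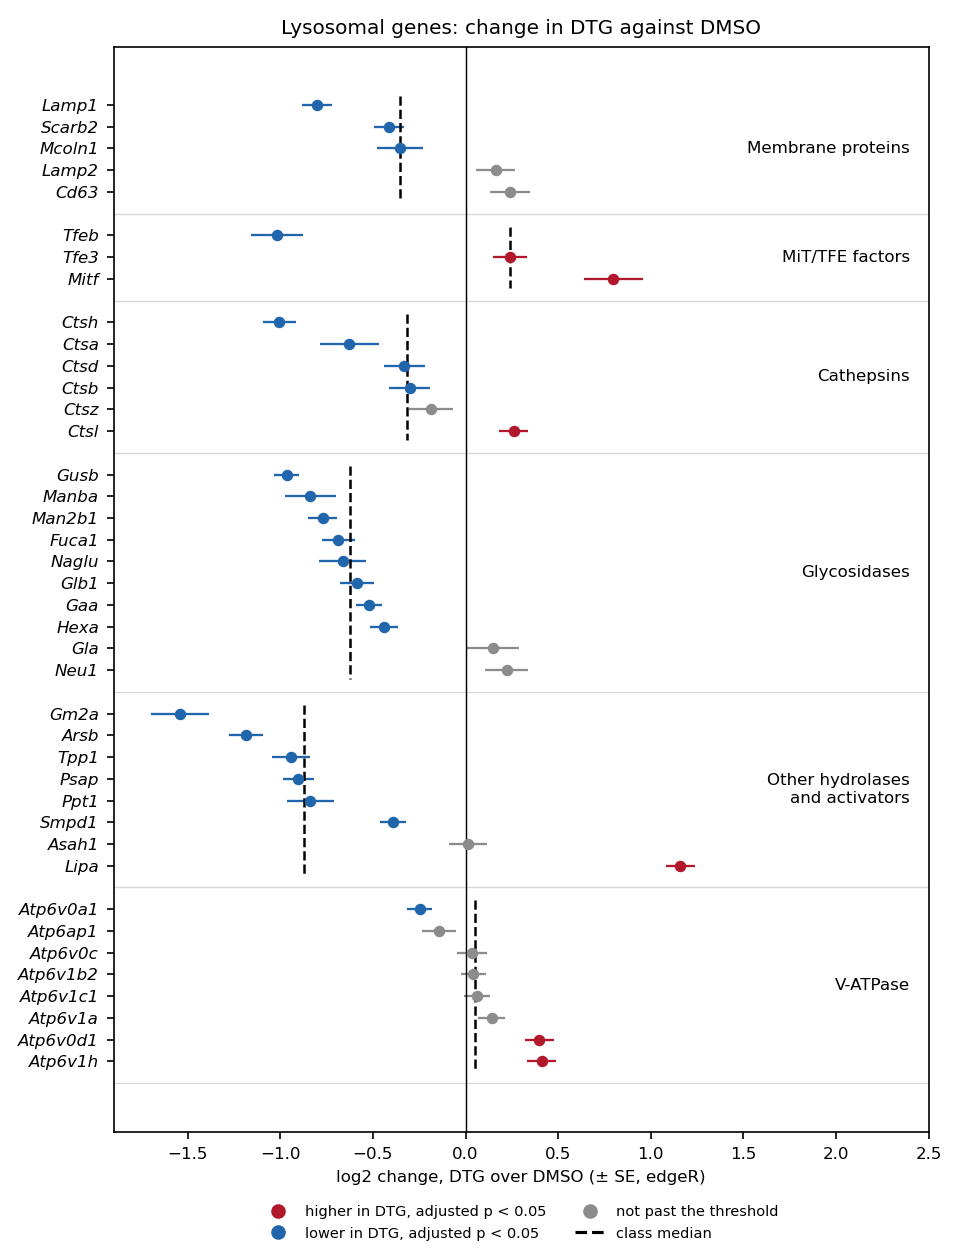
Log2 change of the 40 tested lysosomal genes, DTG over DMSO, with the standard error of edgeR's fit, ordered within class. Dashed lines are class medians, at -0.62 for glycosidases, -0.87 for other hydrolases and activators and 0.05 for the V-ATPase.

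The 3 factors that drive lysosomal genes moved in different directions. Tfeb, regarded as the main activator of the lysosomal programme, had 10.4, 7.47 and 7.67 CPM in DTG libraries 1, 2 and 3, against 18.8, 17.4 and 15.5 CPM in DMSO libraries 1, 2 and 3. All DTG libraries lay below all DMSO libraries. Tfeb fell 2.02-fold (log2 change -1.02 ± 0.14 SE, adjusted p = 0.000173). Within P4 the difference was -1.26 log2, and within P5 it was -0.63 log2. Mitf, best known as the pigment cell and osteoclast member of the family, was the rarest of the 3, at 3.60, 3.70 and 3.07 CPM in the DTG libraries and 1.85, 1.85 and 2.28 CPM in the DMSO libraries. Its groups did not overlap, and it rose 1.74-fold (log2 change 0.80 ± 0.16, adjusted p = 0.00169). Tfe3, the most abundant of these 3, had 66.6, 82.5 and 78.5 CPM in DTG and 68.2, 62.7 and 61.9 CPM in DMSO. For Tfe3, DTG library 1 lay within the DMSO range.

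Tfe3 just passed as higher (log2 change 0.24 ± 0.09, adjusted p = 0.0474), a call that depends on single libraries and on the model. It was lost with library size alone (0.541), upper-quartile factors (0.197), the replicate block (0.0802) and the tag as a term (0.0844). Its adjusted p was 0.138 and 0.108 without DTG library 2 or 3, and 0.0531, 0.132 and 0.110 without DMSO library 1, 2 or 3, in a range over alternatives of 0.00274 to 0.541. Within a library, the ratio of Tfe3 to Tfeb transcripts per unit of length does not depend on how libraries are scaled. It was 3.91, 6.76 and 6.26 in DTG libraries 1, 2 and 3, against 2.22, 2.20 and 2.45 in DMSO libraries 1, 2 and 3, so Tfe3 outnumbered Tfeb by more in each DTG library. Tfec, the fourth member of the family and no part of the 41, was at 25.1 ± 1.98 CPM in DTG and 18.3 ± 0.25 CPM in DMSO (SD, n = 3 each) and rose 1.38-fold (adjusted p = 0.00141).

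**Figure D2:**
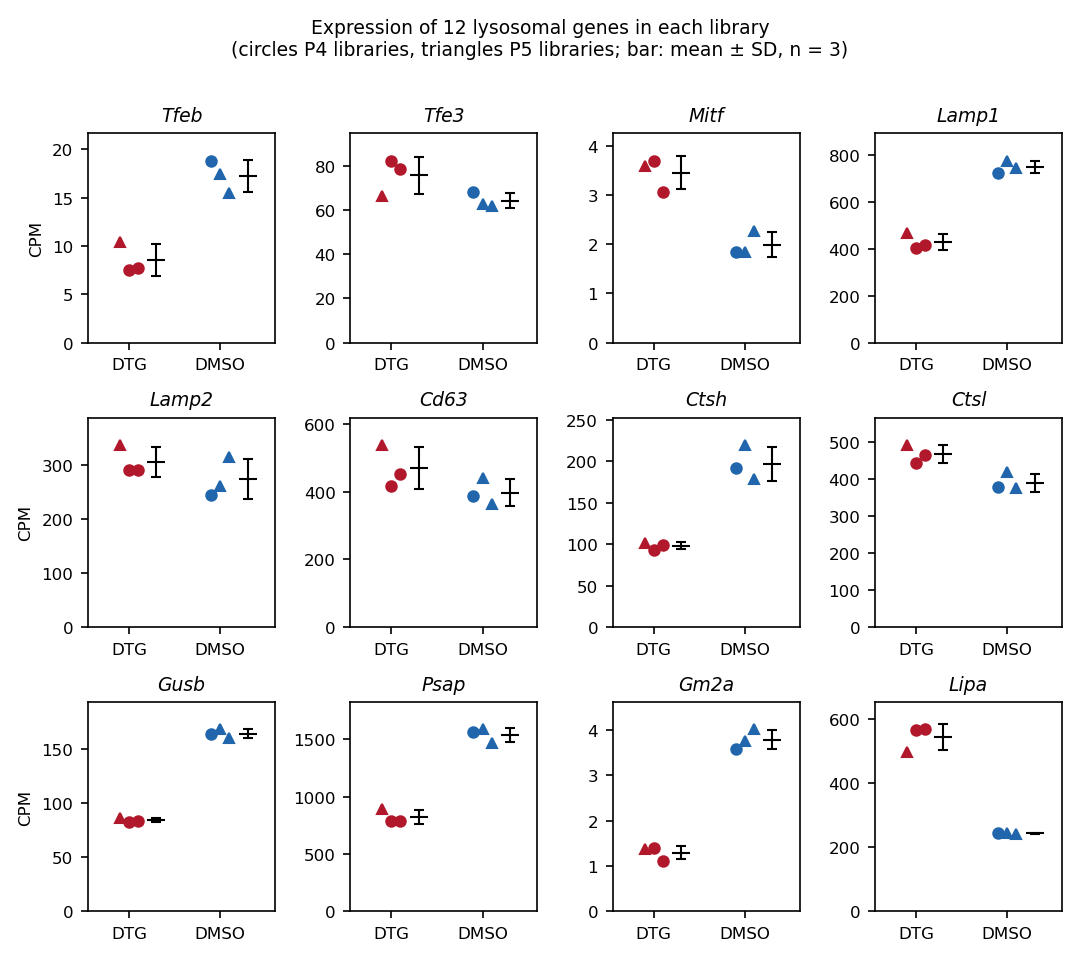
CPM of 12 lysosomal genes in each library, DTG on the left and DMSO on the right of each panel, with circles for P4 and triangles for P5 libraries and the mean ± SD of 3 libraries. Tfeb, Lamp1, Ctsh, Gusb, Psap and Gm2a lie lower in every DTG library, Mitf, Ctsl and Lipa lie higher, and Tfe3, Lamp2 and Cd63 overlap.

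Promoter windows from RefSeq, from 250 bases before to 50 after the transcription start (build GRCm38.p6), were found for 35 of the 41 genes. Windows were not matched for Ctsb, Ctsh, Asah1, Atp6v1b2, Atp6v1c1 and Atp6v1h. The motif CACGTG, which reads the same on both strands, occurred in 12 of the 35 (34.3%), against 8.09% of all 27025 genes with a window. TCACGTGA, the same core with the flanks of the CLEAR element, also identical on both strands and therefore contained in the count of CACGTG, occurred in 6 of the 35 (17.1%), against 1.12% of all genes. TCATGTG, an M-box core of the MITF type searched on both strands, occurred in 6 (17.1%, against 4.31%), and TGATGNAA, the composite element read by ATF4 and searched on both strands, in 4 (11.4%, against 4.51%). TGACGTGG, a core bound by XBP1 and ATF6 and searched on both strands, occurred in 0 of the 35, against 0.714% of all genes. A match is a run of letters and not a measured site.

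The stretches below carry a CLEAR-type core of each of the 6 genes and the promoter of Lamp1, which holds CACGTG 4 times. Ctsa and Gla each hold TCACGTGA 2 times, and the match nearest to the transcription start is shown. They are shown because these are the letters that MiT/TFE factors are known to read. Each is written 5′ to 3′ on the strand of the gene, with each complete CACGTG in capitals.
Lamp1 (chr8:13159085-13159166, plus strand): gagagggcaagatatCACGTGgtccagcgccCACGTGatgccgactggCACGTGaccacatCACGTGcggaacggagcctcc
Mcoln1 (chr8:3500459-3500494, plus strand): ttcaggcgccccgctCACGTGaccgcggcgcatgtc
Ctsa (chr2:164833763-164833798, plus strand): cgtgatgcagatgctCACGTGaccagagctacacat
Ctsd (chr7:142387905-142387940, minus strand): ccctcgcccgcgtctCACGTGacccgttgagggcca
Gla (chrX:134601179-134601214, minus strand): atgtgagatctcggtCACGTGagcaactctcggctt
Atp6v0d1 (chr8:105566047-105566082, minus strand): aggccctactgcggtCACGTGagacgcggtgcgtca
Atp6v1a (chr16:44139370-44139405, minus strand): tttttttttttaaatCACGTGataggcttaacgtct

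Most genes with the motif fell, as did most of those without it. Of the 11 tested members with CACGTG in the window 7 fell and 2 rose, with a median log2 change of -0.36. Of the 23 tested members with a window that lacks CACGTG 14 fell and 3 rose, with a median of -0.41. Over all genes tested 29.3% fell and 27.4% rose. Among the 6 genes with TCACGTGA 3 fell (Ctsa, Ctsd and Mcoln1) and 1 rose (Atp6v0d1), with a median of -0.09. The 3 largest changes among the 41, those of Gm2a, Arsb and Lipa, were in genes whose windows hold no CACGTG.

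Membrane proteins of the lysosome split into members that fell and members that did not pass. Lamp1 encodes a heavily glycosylated protein that lines the inner face of the lysosomal membrane. It had 466, 402 and 417 CPM in DTG libraries 1, 2 and 3, against 723, 775 and 744 CPM in DMSO libraries 1, 2 and 3. The groups lay far apart, and Lamp1 fell 1.75-fold (log2 change -0.80 ± 0.08, adjusted p = 2.32e-05). Its relative Lamp2, which also serves chaperone-mediated autophagy, had 337, 290.04 and 290.2 CPM in DTG and 244, 261 and 315 CPM in DMSO. These groups overlapped, and Lamp2 did not pass (log2 change 0.16 ± 0.11, adjusted p = 0.217), though it did without DMSO library 3 (0.0319) and with the tag as a term (0.0389), in a range over alternatives of 0.0319 to 0.959. The ratio of Lamp2 to Lamp1 per unit of length within a library was 0.203, 0.202 and 0.195 in DTG, against 0.0945, 0.0944 and 0.119 in DMSO.

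Scarb2, the lysosomal membrane protein LIMP-2 of the scavenger receptor family, had 180.1, 161 and 158 CPM in DTG and 212, 221 and 233 CPM in DMSO. Every DTG library was below every DMSO library, and Scarb2 fell 1.33-fold (log2 change -0.41 ± 0.08, adjusted p = 0.00141). Cd63, a tetraspanin of late endosomes and lysosomes, had 538, 416 and 452 CPM in DTG and 387, 441 and 363 CPM in DMSO. Cd63 overlapped and did not pass (log2 change 0.24 ± 0.11, adjusted p = 0.0862), but passed as higher in 5 of 16 alternatives. It did so without DTG library 2 (0.0260), with DESeq2 (0.0409) and with the tag as a term (0.0280). It also passed with no filter on low counts and when libraries sharing a library-name number were summed, in a range over alternatives of 0.0260 to 0.619. Mcoln1, the calcium release channel TRPML1, had 46.3, 33.4 and 34.7 CPM in DTG and 48.9, 52.6 and 44.8 CPM in DMSO. DTG library 1 lay within the DMSO range, and Mcoln1 passed as lower by a narrow margin (log2 change -0.36 ± 0.12, adjusted p = 0.0315), at -0.52 log2 under P4 but -0.07 under P5. That call was lost without DTG library 2 or 3 (adjusted p = 0.145 and 0.140) and without DMSO library 1 or 2 (0.0759 and 0.119), in a range of 0.00111 to 0.145.

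Cathepsins, the proteases of the lysosome, fell in 4 of 6 tested cases and rose in 1. The share called was 83.3%, against 56.7% of all genes tested, and the median log2 change was -0.32 (-0.40 within P4 and -0.11 within P5). Ctsh, an aminopeptidase, showed the largest fall of the class, with 101, 93.1 and 99.3 CPM in DTG libraries 1, 2 and 3, against 191, 219 and 179 CPM in DMSO libraries 1, 2 and 3. The groups were well separated, and the fall was 2.01-fold (log2 change -1.01 ± 0.09, adjusted p = 9.77e-06). Ctsa, a carboxypeptidase that also shields β-galactosidase and neuraminidase from degradation, had 250.2, 166 and 166 CPM in DTG and 269, 335 and 296 CPM in DMSO. It fell 1.54-fold (log2 change -0.63 ± 0.16, adjusted p = 0.00803), with DTG library 1 close to the lowest DMSO library. Ctsl, a cysteine protease, moved the other way, at 491, 443 and 463 CPM in DTG and 376, 417 and 374 CPM in DMSO. Its groups did not overlap (log2 change 0.26 ± 0.08, adjusted p = 0.0170), but the call was lost without DMSO library 1 (0.0647) and with upper-quartile factors or library size alone (0.0984 and 0.366), in a range of 0.00231 to 0.366. Predicted genes on the opposite and the same strand overlap 26.8% and 6.09% of its exon bases.

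Ctsd, the aspartic protease, was the most abundant of the 41 per unit of length in both groups, at 3915 ± 463 in DTG and 5775 ± 548 in DMSO (TPM, counts per unit of merged exon length scaled to the library, SD, n = 3 each). A predicted gene on the same strand shares 34.4% of its exon bases, so reads there cannot be assigned to Ctsd alone. In CPM it had 3245, 2611 and 2671 in DTG and 3582, 3936 and 3206 in DMSO, with DTG library 1 inside the DMSO range. It passed as lower (log2 change -0.33 ± 0.11, adjusted p = 0.0266), at -0.44 log2 under P4 but -0.13 under P5. The call was lost without DTG library 2 or 3 (both 0.127) and without DMSO library 1 or 2 (0.0657 and 0.108), in a range of 0.00388 to 0.127. Ctsb, a cysteine protease, was at 687 ± 108 CPM in DTG and 847 ± 53.5 CPM in DMSO and passed as lower (log2 change -0.30 ± 0.11, adjusted p = 0.0383). Its adjusted p was 0.195 and 0.170 without DTG library 2 or 3 and 0.0577, 0.135 and 0.0733 without DMSO library 1, 2 or 3, in a range of 0.00234 to 0.195. Exons of Ctsb share 12.8% of their bases with the opposite-strand gene Fdft1, a cholesterol synthesis gene that rose (log2 change 1.45), and the strand setting of the counting is not given. Ctsz, a carboxypeptidase, was at 106 ± 16.2 CPM in DTG and 121 ± 14.8 CPM in DMSO and did not pass (adjusted p = 0.206), except without DTG library 1 (0.0390) or with library size alone (0.0308), in a range of 0.0308 to 0.654. Ctsf had 1 count in DTG library 3 and 0 in every other library, where a count of 0 allows up to 0.0506 to 0.0691 CPM in a DMSO library.

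Glycosidases, which strip sugars from glycoproteins, glycolipids and glycosaminoglycans, fell in 8 of 10 cases and rose in 0. The share called was 80%, against 56.7% of all genes tested, and the median log2 change was -0.62 (-0.73 within P4 and -0.45 within P5). Gusb, the β-glucuronidase, had 86.1, 82.7 and 83.1 CPM in DTG libraries 1, 2 and 3, against 164, 168 and 160 CPM in DMSO libraries 1, 2 and 3. It was among the tightest of all, falling 1.95-fold (log2 change -0.97 ± 0.07, adjusted p = 2.67e-06). Man2b1, the α-mannosidase of N-glycan breakdown, had 63.8, 56.9 and 54.3 CPM in DTG and 101, 98.4 and 99.5 CPM in DMSO. The groups did not overlap, and the fall was 1.71-fold (adjusted p = 2.59e-05). Fuca1, the fucosidase, had 61.8, 66.6 and 66.2 CPM in DTG and 113, 108 and 92.5 CPM in DMSO, and fell 1.61-fold (adjusted p = 0.000106). Gaa, which degrades glycogen, had 149.6, 145 and 142 CPM in DTG and 214, 213 and 199 CPM in DMSO, again with no overlap, and fell 1.43-fold (adjusted p = 0.000153).

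The other glycosidases that fell were Glb1, Manba, Hexa and Naglu. Manba, the β-mannosidase, was at 12.6 ± 2.74 CPM in DTG and 22.5 ± 0.79 CPM in DMSO and fell 1.79-fold. Naglu, which acts on heparan sulfate, was at 39.2 ± 8.16 CPM in DTG and 62.2 ± 2.96 CPM in DMSO and fell 1.58-fold. Both had DTG library 1 above the other DTG libraries, with log2 changes of -0.97 and -0.78 within P4 and -0.52 and -0.38 within P5. Glb1, the β-galactosidase that removes galactose from the ganglioside GM1, fell 1.5-fold to 20.9 ± 0.94 CPM in DTG, against 31.3 ± 2.68 CPM in DMSO. Hexa, which acts in ganglioside breakdown, fell 1.36-fold to 185 ± 4.23 CPM in DTG, against 251 ± 18.8 CPM in DMSO. For all 8 that fell the adjusted p was between 2.67e-06 and 0.00138. Neu1, the sialidase, had 66.6, 51.9 and 51.6 CPM in DTG and 52.2, 50.4 and 43.3 CPM in DMSO and did not pass (log2 change 0.22 ± 0.11, adjusted p = 0.124). Gla, the α-galactosidase that clears globotriaosylceramide from vessel walls, had 43.1, 29.1 and 29.9 CPM in DTG and 28.2, 32.5 and 31.5 CPM in DMSO, with DTG library 1 apart from the rest. It did not pass (log2 change 0.15 ± 0.14, adjusted p = 0.398), at 0.06 log2 under P4 but 0.42 under P5, and passed as higher with the tag as a term (0.0425), in a range of 0.0425 to 0.915.

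Among the lipid, sulfate and peptide hydrolases and the activator proteins, 6 of 8 fell and 1 rose. The share called was 87.5%, against 56.7% of all genes tested, and the median log2 change was -0.87 (-0.92 within P4 and -0.68 within P5). Lipa, the acid lipase that frees cholesterol and fatty acids from lipoprotein lipids in the lysosome, was the single member of the class that rose. It had 496, 564 and 567 CPM in DTG libraries 1, 2 and 3, against 244, 244 and 241 CPM in DMSO libraries 1, 2 and 3. It rose 2.23-fold (log2 change 1.16 ± 0.08, adjusted p = 1.93e-06) and passed in all 16 alternatives that gave a test, with log2 changes of 0.99 to 1.25. Among the 41 genes Lipa stood 10th in DTG and 19th in DMSO in TPM.

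Activators that present sphingolipids to their hydrolases fell together with several of those enzymes. Psap, the precursor of the saposins, was second to Ctsd in TPM among the 41. It had 893, 789 and 787 CPM in DTG and 1560, 1586 and 1470 CPM in DMSO. The fall was 1.87-fold (log2 change -0.90 ± 0.08, adjusted p = 1.24e-05) without overlap. Gm2a, the activator protein that presents the ganglioside GM2 for degradation, had 1.37, 1.39 and 1.12 CPM in DTG and 3.58, 3.76 and 4.01 CPM in DMSO. Although rare in these cells, it showed the largest fall of the 41, 2.91-fold (log2 change -1.54 ± 0.16, adjusted p = 2.47e-05), and the difference of log2(CPM + 0.5) was -1.22 under either tag.

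Arsb, the arylsulfatase that acts on dermatan sulfate, had 41.02, 34.2 and 34.03 CPM in DTG and 77.5, 84.7 and 86.3 CPM in DMSO. It fell 2.27-fold (log2 change -1.18 ± 0.09, adjusted p = 4.46e-06), although 32.3% of its exon bases overlap a predicted gene on the opposite strand. Tpp1, the tripeptidyl peptidase deficient in a childhood neuronal ceroid lipofuscinosis, was at 135 ± 19.7 CPM in DTG and 260 ± 10.3 CPM in DMSO and fell 1.92-fold (adjusted p = 3.54e-05). Ppt1, the palmitoyl thioesterase of another form of that disease, was at 50.1 ± 9.52 CPM in DTG and 89.5 ± 7.50 CPM in DMSO and fell 1.79-fold (adjusted p = 0.000294). Smpd1, the acid sphingomyelinase, fell less, to 76.9 ± 1.93 CPM in DTG against 101 ± 5.00 CPM in DMSO (1.31-fold, adjusted p = 0.00108). Asah1, the acid ceramidase that acts on the ceramide so formed, had 157, 132 and 135 CPM in DTG and 123, 140 and 157 CPM in DMSO and did not pass (log2 change 0.01 ± 0.10, adjusted p = 0.920).

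**Figure D3:**
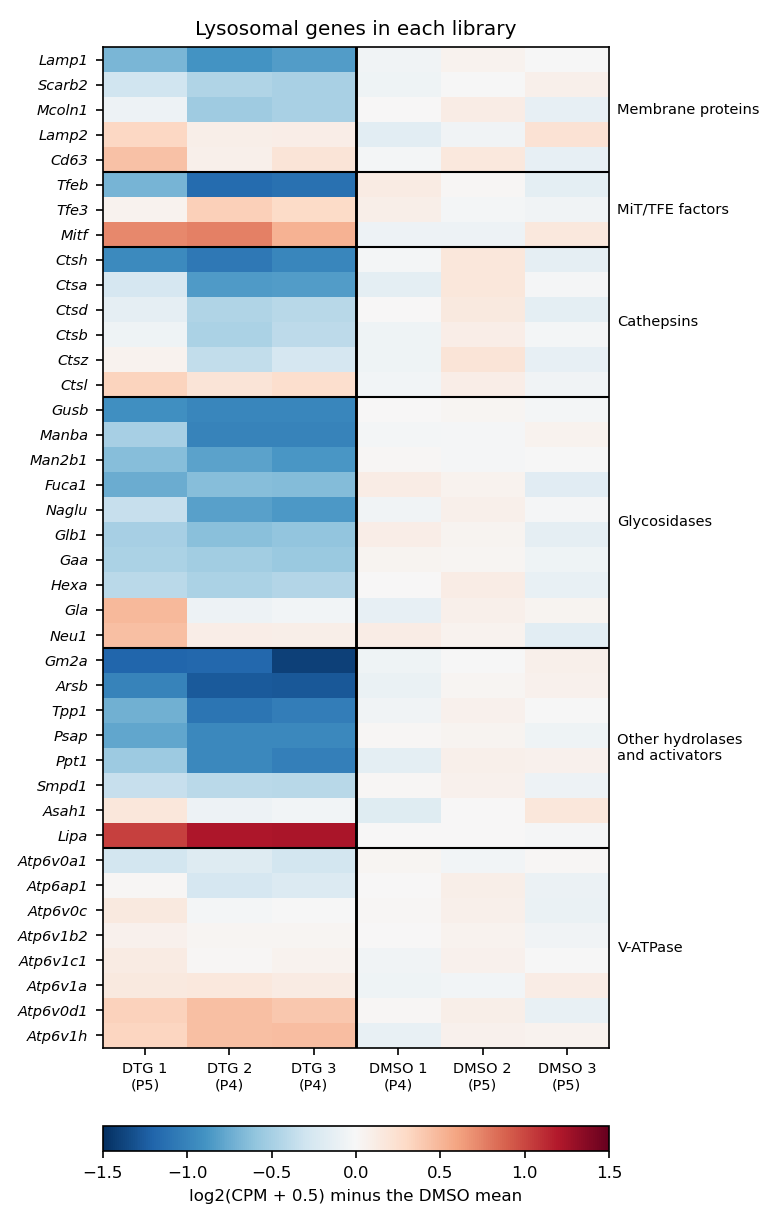
Each of the 40 tested genes in each library as log2(CPM + 0.5) minus the mean of the 3 DMSO libraries, with DTG libraries on the left and DMSO libraries on the right, grouped by class. Blue fills most glycosidase and other hydrolase rows in DTG, with paler colours in DTG library 1 for most of them, and most V-ATPase rows stay pale.

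Of the 8 proton pump members 2 rose, 1 fell and 5 did not pass, a share called of 37.5% against 56.7% of all genes tested. The median log2 change was 0.05 (0.06 within P4 and 0.10 within P5), but upper-quartile factors turned it to -0.04 and unscaled library sizes to -0.12, so no direction can be given for the class. Atp6v1h, a regulatory subunit of V1, had 147, 161 and 162 CPM in DTG libraries 1, 2 and 3, against 109, 123 and 122 CPM in DMSO libraries 1, 2 and 3. It rose 1.33-fold (log2 change 0.41 ± 0.08, adjusted p = 0.00141). Atp6v0d1, which joins the rotor ring of V0 to the central stalk, had 147, 159 and 153 CPM in DTG and 117, 123 and 108 CPM in DMSO and rose 1.32-fold (log2 change 0.40 ± 0.08, adjusted p = 0.00149). In both genes every DTG library was above every DMSO library.

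Atp6v0a1, an isoform of the V0 subunit through which protons enter and leave, had 119, 126 and 119 CPM in DTG and 147, 140.4 and 146 CPM in DMSO. Its groups did not overlap and it fell 1.19-fold (log2 change -0.25 ± 0.07, adjusted p = 0.0112), but not without DTG library 3 (0.107, range 0.000465 to 0.107). Atp6v1a, the catalytic subunit, had 254, 257 and 252 CPM in DTG and 221, 224 and 248 CPM in DMSO. Although its groups did not overlap it did not pass (log2 change 0.14 ± 0.07, adjusted p = 0.130), except without DMSO library 3 (0.0203, range 0.0203 to 0.749). Atp6ap1, an assembly factor, was at 258 ± 26.8 CPM in DTG and 286 ± 18.1 CPM in DMSO and did not pass (adjusted p = 0.197), except as lower without DTG library 1 (0.0421) or with library size alone (0.0162), in a range of 0.0162 to 0.635. Atp6v1b2 and Atp6v1c1, of the V1 sector, and Atp6v0c, which forms the proton-carrying ring, did not pass, with log2 changes of 0.04, 0.06 and 0.04 that turn negative when libraries are left at their raw size. The summed TPM of the 4 V1 members over those of the 3 V0 members were 0.530 ± 0.009 in DTG and 0.535 ± 0.038 in DMSO (SD, n = 3 each).

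The remainder of the pathway was read from 6 further lists of genes that are no part of the 41. Of 25 further soluble hydrolases and cofactors, all tested, 15 fell and 2 rose (68% called, against 56.7% of all genes tested), with a median log2 change of -0.42. Ids, which removes sulfate from heparan and dermatan sulfate, had 50.3, 52.4 and 49.3 CPM in DTG and 107, 101 and 114 CPM in DMSO, a 2.12-fold fall (adjusted p = 2.58e-06). Dnase2a and Man2b2 fell 2.32-fold and 1.88-fold, and 30.0% of the exon bases of Dnase2a overlap a gene on the opposite strand. Npc2, which hands cholesterol to the membrane, was lower (-0.25 ± 0.08, adjusted p = 0.0248), a call lost without DTG library 2 or 3 (both 0.112) and without DMSO library 1 or 2 (0.0924 and 0.0898) and when libraries sharing a library-name number were summed (0.108), in a range of 0.00178 to 0.112.

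Further peptidases and protease inhibitors went both ways, with 4 higher and 4 lower of 10 tested (80% called, against 56.7% of all genes). Scpep1, a serine carboxypeptidase, had 397, 371 and 367 CPM in DTG and 121, 123 and 126 CPM in DMSO and rose 3.07-fold (adjusted p = 1.62e-07). Prcp, the prolylcarboxypeptidase, went the opposite way, with 376, 306 and 320 CPM in DTG and 694, 775 and 717 CPM in DMSO (2.18-fold lower, adjusted p = 6.50e-06). Serpinb6a, an intracellular serpin, rose 2.4-fold, and Lgmn, the asparaginyl endopeptidase that matures several cathepsins, rose 1.58-fold (adjusted p = 0.00397). Of 25 further membrane proteins tested 12 fell and 2 rose (56% called, against 56.7% of all genes). Abca2, Tspan3 and Sidt2 fell by 1.13, 0.87 and 0.74 log2, and Npc1, the cholesterol exporter, did not pass (-0.18 ± 0.08, adjusted p = 0.0866), except as lower without DTG library 1 (0.0208) and with library size alone or upper-quartile factors (0.00614 and 0.0193), in a range of 0.00614 to 0.421. Gpnmb had too few counts to be tested.

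Receptors and carriers that bring hydrolases to the lysosome included some of the largest changes of the pathway. Of 22 genes for tagging, export and sorting 5 rose and 7 fell (54.5% called, close to the 56.7% of all genes tested), with a median log2 change of -0.02. Igf2r, the large receptor for mannose 6-phosphate, had 4.14, 3.74 and 4.25 CPM in DTG and 18.1, 16.6 and 17.5 CPM in DMSO, a 4.3-fold fall (log2 change -2.10 ± 0.10, adjusted p = 2.58e-07). M6pr, the small receptor for the same tag, had 164, 178 and 185 CPM in DTG and 127, 128 and 117 CPM in DMSO and rose 1.42-fold (adjusted p = 0.000373). Every DTG library was thus below the DMSO range for Igf2r and above it for M6pr. Sort1, sortilin, an alternative carrier of hydrolases such as prosaposin, had 28.3, 28.5 and 29.4 CPM in DTG and 77.7, 71.0 and 68.3 CPM in DMSO and fell 2.52-fold (adjusted p = 7.59e-07). Cln8, which helps newly made hydrolases leave the endoplasmic reticulum, had 118, 151 and 144 CPM in DTG and 19.1, 20.1 and 20.8 CPM in DMSO and rose 6.89-fold (log2 change 2.78 ± 0.10, adjusted p = 4.79e-08).

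**Figure D4:**
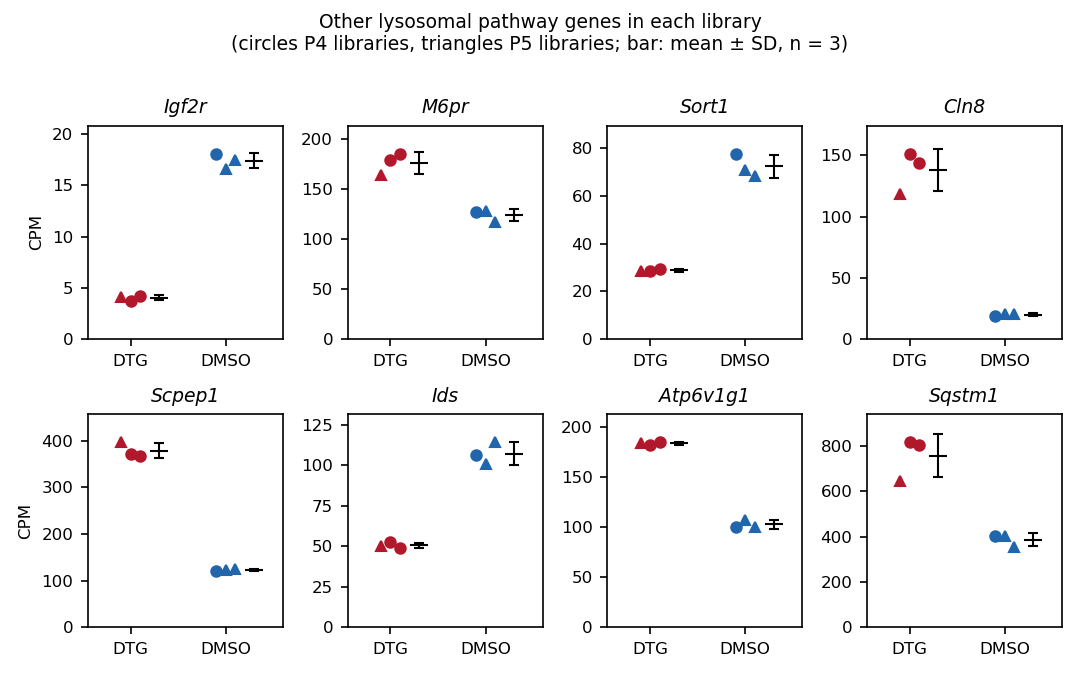
CPM of 8 lysosomal pathway genes outside the 41 in each library, DTG on the left and DMSO on the right of each panel, with circles for P4 and triangles for P5 libraries and the mean ± SD of 3 libraries. The groups are apart in all 8 panels, with Igf2r, Sort1 and Ids lower in DTG and M6pr, Cln8, Scpep1, Atp6v1g1 and Sqstm1 higher.

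Further V-ATPase subunits and assembly factors rose in 3 and fell in 5 of 14 tested cases (57.1% called, against 56.7% of all genes tested), with a median log2 change of 0.03. Atp6v1g1, a stalk subunit of V1, had 184, 182 and 185 CPM in DTG and 101, 108 and 100.4 CPM in DMSO and rose 1.79-fold (adjusted p = 6.30e-06). Atp6ap2, the second accessory protein of the pump, rose 1.38-fold (adjusted p = 0.00405), and Rogdi fell by 0.72 log2. Among 30 tested genes of nutrient sensing and TFEB control 7 rose and 8 fell (50% called, against 56.7% of all genes tested). Sesn1 and Castor1, sensors that restrain the kinase mTORC1 when leucine or arginine is scarce, fell 3.80-fold and 3.55-fold. The relatives of Sesn1 did not share a direction: Sesn3 fell 1.68-fold (adjusted p = 4.89e-05), and Sesn2, also a leucine sensor, had 66.2, 129.7 and 121 CPM in DTG and 41.5, 37.4 and 33.3 CPM in DMSO and rose 2.83-fold (adjusted p = 0.00176). Sqstm1, the autophagy receptor p62 and itself a known target of TFEB, had 647, 817 and 805 CPM in DTG and 401, 404 and 356 CPM in DMSO and rose 1.95-fold (adjusted p = 3.17e-05). Flcn and Fnip2, partners that govern the location of TFEB and TFE3, did not pass (adjusted p = 0.486 and 0.167), though Flcn passed as lower with library size alone (0.0375, range 0.0375 to 0.919) and Fnip2 as higher with the tag as a term (0.0385, range 0.0385 to 0.911). Rragd had too few counts to be tested.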

How the data were processed

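Raw counts by Ensembl gene identifier were deposited by the authors for 6 libraries, made from poly(A) RNA with a strand-preserving kit per the labels' protocols. The build was GRCm39 per the submitters' processing notes. Which aligner, counter, strand setting and annotation were used is not given in the sources used here. Beyond the overlaps given above, opposite-strand genes share exon bases with Sqstm1 (17.3%), Serpinb6a (up to 14.1% per gene), Hexa (12.8%) and Ctsa (up to 10.5% per gene). Other named genes had smaller overlaps or none. Symbols came from a reference table (38606 identifiers, 89.2%). Counts were analysed with edgeR 4.0.16 in R 4.3.3: filterByExpr by group (14101 genes), TMM scaling, robust quasi-likelihood F-test with group as the only term, and Benjamini-Hochberg adjustment over all genes tested at 0.05. CPM are relative to TMM-scaled library sizes, and standard errors were obtained as the size of the log2 change over √F. Differences within a tag use log2(CPM + 0.5). TPM used the merged length of all annotated exons of a gene in GENCODE M21, by gene identifier. Levels can be compared between genes only roughly, because the transcripts expressed may be shorter. Intervals of counting error and floors (3 counts) cover counting only. The pipeline was tested on simulated data, where it missed most changes of the smallest size and false calls exceeded the nominal rate. Far fewer genes were changed in the simulation than were called here, so its rates may not hold for these calls.

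Alternatives were DESeq2 1.42.0, 3 other scalings, 2 filters, a threshold of 0.01, a replicate block, the tag as a term, summing libraries of a group that share the number in the library name, and leaving out each library. DTG and DMSO libraries with the same number in the title did not deviate together (correlations across genes of -0.295, -0.106 and -0.0744). Each such pair crosses the tags, so this check cannot tell pairing from tag. The labels name no pairing, and the title numbers were not taken as pairs. Libraries sharing a tag did deviate together (0.134 to 0.226), but the main model has no tag term. Each cross-tag pair was negative, which largely follows from taking deviations from the mean of each group, and is no separate result. With the tag as a term 8 members rose and 23 fell, against 6 and 23 without it. The 41 genes and the lists were chosen with earlier results of these data known. Values in every library are given for the MiT/TFE factors, the membrane proteins, the 4 smallest adjusted p of each other class and any called member opposed to its class median. From each further list the 3 smallest p-values and some fixed genes were named; other members named were chosen after their values were seen. Figures were drawn with matplotlib 3.10.9. Some genes of the further lists are counted but not reported here by name.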

Additional observations from a re-analysis of the deposited data

How the results depend on the processing

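Of the 29 genes called among the 40 tested, 22 kept their call and direction in all 16 alternatives that gave a test, 7 lost it in at least 1 and none changed sign with a call. Those 7 were Tfe3, Mcoln1, Ctsa, Ctsb, Ctsd, Ctsl and Atp6v0a1, and Ctsa lost its call only with no filter on low counts (adjusted p = 0.0559). Of the 11 not called 6 passed in at least 1 alternative. The members called lower numbered 19 to 25 and those called higher 4 to 7 when a library was left out, and 22 and 5 with the replicate block, which took the calls of Tfe3 (adjusted p = 0.0802) and Ctsb (0.0512). Over all genes, leaving out a library gave 3360 to 4368 higher and 3110 to 4150 lower genes. Scaling by library size alone moved the overall median by -0.17 log2 and gave 2536 higher and 5730 lower genes, so that 30.7% of calls were higher, against 48.3% with TMM and 38.2% with upper-quartile factors. With library size alone the median log2 change was -0.52 for membrane proteins, 0.067 for MiT/TFE factors, -0.49 for cathepsins, -0.79 for glycosidases, -1.04 for other hydrolases, -0.12 for the V-ATPase and -0.51 for the 40 genes. Upper-quartile factors gave -0.72 for glycosidases and -0.041 for the V-ATPase. Within P5 the medians were -0.068, 0.10, -0.11, -0.45 and -0.68 for the first 5 classes in this order and -0.20 for the 40 genes, and within P4 that of glycosidases was -0.73. Leaving out a library gave medians of -0.44 to -0.24 for membrane proteins, 0.20 to 0.36 for MiT/TFE factors, -0.40 to -0.22 for cathepsins, -0.66 to -0.54 for glycosidases, -0.95 to -0.78 for other hydrolases, 0.036 to 0.11 for the V-ATPase and -0.40 to -0.25 for the 40 genes. The cause of these shifts was not tested.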
